A study of Canis lupus familiaris with 31 samples.

Results

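The 37 genes of the dog mitochondrial genome were read from the whole blood RNA of 31 Miniature Schnauzers, 13 cases with HTG (raised blood triglycerides) and 18 controls. They were taken as the rows whose Ensembl gene identifiers run from ENSCAFG00000022708 to ENSCAFG00000022744, 37 of the 32704 rows of the count table. Of these rows, 13 carry the symbol of a protein-coding gene, 2 were given as the ribosomal RNAs (rRNA) by the rule that defined the set, and 22 carry no symbol. The cases were 5 females and 8 males and the controls 8 females and 10 males. All were privately owned purebred dogs of 1 breed, recruited as older adults, nearly all neutered, whose owners were asked to withhold food before sampling, with no agent or genotype assigned. HTG arose spontaneously in the cases, and dogs on drugs known to alter blood lipids were not enrolled. Because whole blood is a mixture, fewer cells of a type and less RNA per cell cannot be told apart in any value below.

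The mitochondrial genome is a small circle that every nucleated animal cell carries in many copies. Both of its strands are read into long transcripts, which are cut at the transfer RNAs (tRNA) that lie between the other genes. In mammals it encodes 13 proteins, 2 rRNAs and 22 tRNAs, and all 13 proteins are subunits of the respiratory chain or of ATP synthase. MT-ND6 is the one protein-coding gene transcribed from the other, light strand. In blood, mitochondrial transcripts come from leukocytes, from platelets and from reticulocytes, the young red cells that have not yet lost their mitochondria, while mature red cells of mammals hold none. The file does not pair the 22 rows without a symbol with any gene name, so they are given by identifier only.

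Each dog had 1 library of 14524659 to 41533599 counts. Control 3 and case 1 stood apart from the other libraries. Their TMM factors, which rescale a library for its composition, were 0.527 and 0.752, while those of the other 29 dogs ran from 0.826 to 1.24. Their summed erythroid markers were also the highest, at 38068 and 21336 counts per 1000000 counts (CPM), with a median over all dogs of 3552 CPM. Leukocyte and platelet markers were present in every dog. The 7 neutrophil markers found summed to 3578 to 16265 CPM and the 9 platelet markers found to 660 to 4710 CPM. The dogs also fell on 2 sides of a gap in the mean level of 364 small RNA rows. On the high side were 10 dogs (5 cases and 5 controls), at 1.68 or more on the log2 CPM scale, and on the low side 21 dogs (8 cases and 13 controls), at 1.41 or less. The study states that 5 case and 5 control libraries were made earlier, for a pilot, but which dogs these were is not given in the sources used here, so the gap is described only as a gap in small RNA. Per its methods the study still saw a difference between the pilot and later libraries and held it in its model as a batch term. No fit here has that term, so such a difference remains in the values and tests below.

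The 2 rRNA rows took a large part of every library, although the library kit removes rRNA. One or the other was the row with the most counts in all 31 libraries, and in 28 they were the 2 largest rows. Together they held 17.2% ± 3.5 of all counts in the cases (SD, n = 13 here and below) and 16.9% ± 3.4 in the controls (SD, n = 18). Single dogs ran from 11.8% in control 9 to 24.2% in control 3. In the case with the smallest share, case 3, it was 12.0% (95% Wilson interval 12.0% to 12.1%), so counting error is far smaller than the spread between dogs, and the groups overlapped over nearly their whole range. Intervals of this kind cover counting error only.

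The 13 mRNA rows together held 0.306% ± 0.058 of the counts in the cases and 0.346% ± 0.076 in the controls. The lowest share was 0.200% in case 6, and the highest was 0.539% in control 14. The difference of 0.0393 percentage points between the group means is smaller than the SD of either group. As a share of the counts outside the rRNA rows, the means were 0.371% ± 0.074 and 0.416% ± 0.092. rRNA counts exceeded mRNA counts 24.9-fold in control 9 and 89.5-fold in case 6, the extremes of the 31 dogs.

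**Figure D1:**
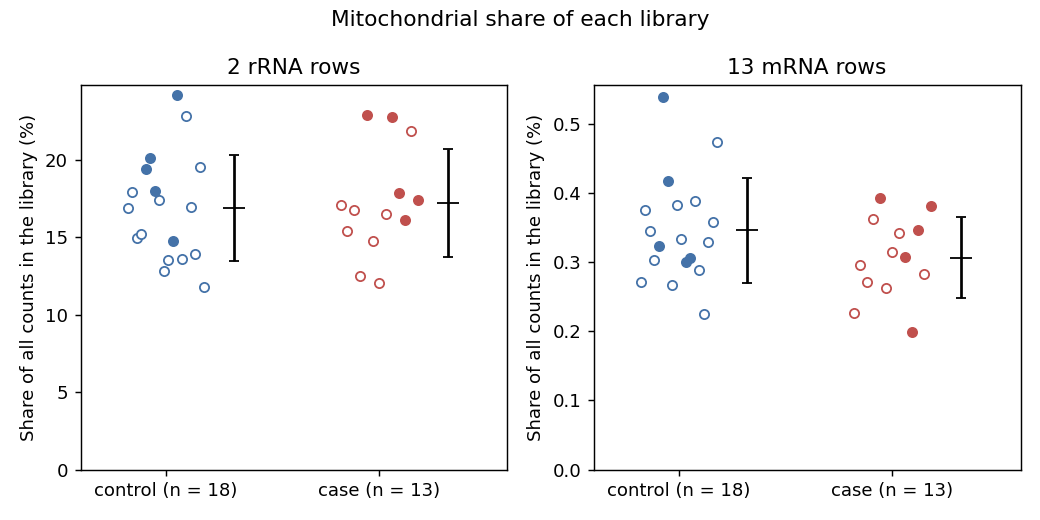
Share of all counts (percent, vertical axes) held by the 2 mitochondrial rRNA rows (left) and the 13 mitochondrial mRNA rows (right), 1 point per dog, with the mean and SD of each group in black. Filled points are the 10 dogs on the high side of the small RNA gap. Cases and controls overlap in both panels, and the highest mRNA share, 0.539%, belongs to a control.

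The 2 rRNA rows did not keep 1 ratio from dog to dog. Counts of ENSCAFG00000022711 over those of ENSCAFG00000022709 were 1.70 ± 1.20 in the cases and 1.14 ± 0.27 in the controls, with medians of 1.31 and 1.13. Case 6 at 5.06 and case 4 at 3.27 lay above all controls, whose highest was 1.96 in control 3. In case 6 the row ENSCAFG00000022709 held 2.95% of the counts and in case 4 it held 3.87%, the lowest of all dogs, and the other 29 dogs held 5.67% or more. Neither rRNA row passed the test between the groups. The log2 fold change, case over control, was -0.10 (SE 0.16, adjusted p = 0.888) for ENSCAFG00000022709 and 0.22 (SE 0.24, adjusted p = 0.809) for ENSCAFG00000022711 by edgeR's quasi-likelihood test. Both moved with single dogs. Without control 3, ENSCAFG00000022711 was at 0.42 (unadjusted p = 0.0358, adjusted p = 0.264) and ENSCAFG00000022709 at -0.014, and the latter was at -0.038 without case 4 and -0.033 without case 6. With the platelet marker score in the model ENSCAFG00000022711 turned to -0.20 (adjusted p = 0.918), and with the erythroid score it was at 0.033.

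Of the 37 rows, 20 passed the filter on low counts and entered the test across 13918 genes: both rRNA rows, all 13 mRNA rows and 5 of the 22 rows without a symbol. No mitochondrial row passed the adjusted p threshold of 0.05 for HTG, against a background of 5 genes, or 0.0359% of all genes tested, each higher in the cases. DESeq2 and limma-voom called none either. DESeq2 was run on all 37 rows, but it gave an adjusted p to only 15806 of the 25584 genes with a p. A row without an adjusted p could not be called. At an unadjusted p under 0.05, edgeR, DESeq2 and limma-voom each counted 1 mitochondrial row, where they counted 9.81%, 6.76% and 11.2% of all genes. With the side of the small RNA gap in the model, 8 rows were counted at that level, where 9.83% of all genes were. Within the low side alone 4 rows were counted (10.6% of all genes) and within the high side alone none (3.85%). With single dogs left out the count ran from 1 to 5 (4 without case 9, 5 without case 13), where 8.05% to 16.5% of all genes were counted (9.00% and 9.76% without those 2 dogs). None of these passed after adjustment. Without control 3, edgeR called 154 genes in all, and no mitochondrial row.

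The mRNA rows mostly had slightly lower values in the cases. Of the 13, 11 had a log2 fold change below 0, and their median was -0.18. Over all genes tested, 54.5% lay below 0 and the median was -0.016. Of the marker genes of blood cell types, none passed after adjustment. Of 11 erythroid markers, 10 lay above 0 (median 0.62), and their sum ran from 1217 to 21336 CPM in the cases and from 981 to 38068 CPM in the controls. All 9 platelet markers lay above 0 (median 0.61). Of 9 T cell markers, 8 lay below 0 (median -0.17), and their sum ran from 327 to 805 CPM in the cases and from 392 to 920 CPM in the controls. The median of the mRNA rows was -0.16 with the erythroid score in the model and -0.18 with the platelet score, with 13 of 13 rows below 0 in both fits. With the side of the small RNA gap in the model it was -0.23 (13 of 13). On the high side alone it was -0.24 (13 of 13) and on the low side alone -0.21 (11 of 13). It was smaller in size with the dog number as a block (-0.14), without case 1 and control 3 (-0.15) and with limma-voom (-0.16), each with 11 of 13. The part of the T cells was not tested. The counts of these rows are not independent, since all but MT-ND6 come from the long transcript of 1 strand, and MT-ATP8 with MT-ATP6 and ND4L with MT-ND4 overlap on the genome, so that reads in the overlap may have been split or lost between them.

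**Figure D2:**
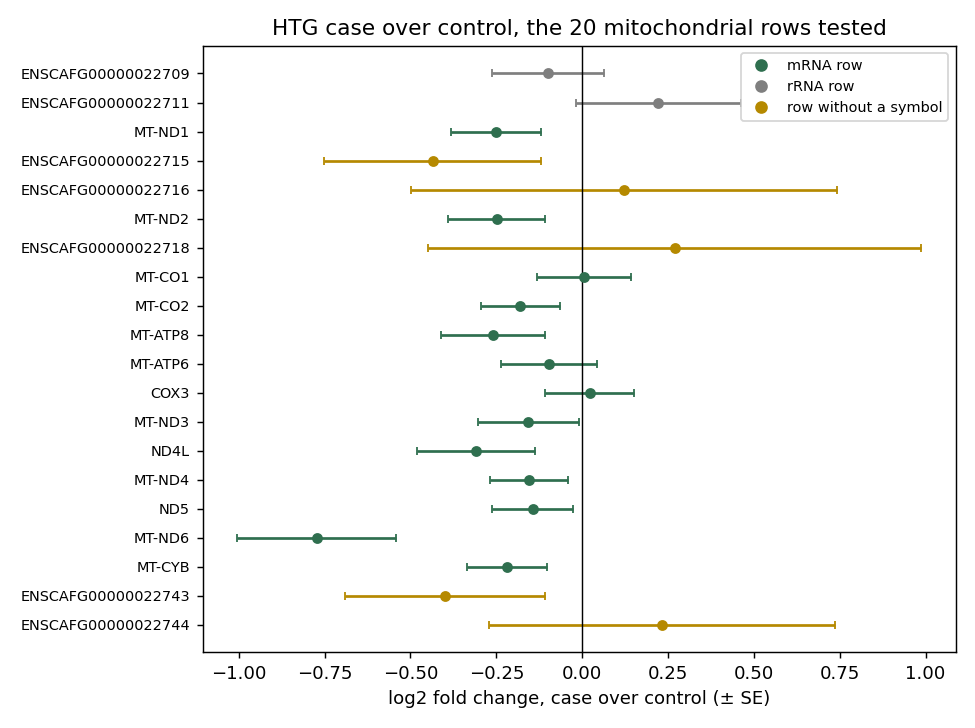
Log2 fold change of HTG cases over controls with its standard error (horizontal axis) for the 20 mitochondrial rows tested, in the order of the file, coloured by kind of row. MT-ND6 lies farthest from 0 among the rows with a symbol, at -0.77, and 11 of the 13 mRNA rows lie below 0.

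MT-ND6, a membrane subunit of complex I, was the 1 row at an unadjusted p under 0.05. The libraries keep strand, but whether the counting used it is not given in the sources used here, so reads of the opposite strand, which carries the long transcript of the other mRNAs, cannot be told apart from those of MT-ND6. In the 13 cases it ran from 11.7 CPM to 50.6 CPM, with a median of 26.6 CPM. In the 18 controls it ran from 19.2 CPM to 145 CPM, with a median of 41.6 CPM. Thus 12 of 13 cases lay below the control median and 2 lay below the lowest control, but the ranges overlapped widely and 1 control, control 9, stood far above the rest. The means were 27.3 ± 10.2 CPM and 46.7 ± 28.3 CPM. The log2 fold change was -0.77 (SE 0.23, 95% interval -1.23 to -0.32), with an unadjusted p of 0.00212 and an adjusted p of 0.215, so it did not pass.

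The value of MT-ND6 moved when single dogs were left out and when a platelet marker score was in the model. Left out singly, the dogs moved its log2 fold change between -0.88 (without case 3) and -0.58 (without control 9), with adjusted p between 0.0585 (without control 3) and 0.346. Without both case 1 and control 3 it was -0.79 (adjusted p = 0.120). By DESeq2's Wald test the adjusted p of MT-ND6 was 0.0728, so it did not pass there either. That was its lowest adjusted p among the settings other than single dogs left out. Of the 9 platelet markers found, 8 were higher in the cases at an unadjusted p under 0.05, where the background for higher genes was 5.04%, and none passed after adjustment. Their sum was 2801 ± 921 CPM (984 to 4436) in the cases and 2322 ± 936 CPM (660 to 4710) in the controls. With the platelet marker score in the model, MT-ND6 had a log2 fold change of -0.24 (SE 0.22, adjusted p = 0.905). With the erythroid score instead, added after the data were seen, it was -0.55 (adjusted p = 0.401).

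MT-ND6 also differed between the sides of the small RNA gap, in the direction opposite to the other mRNA rows. Its mean was 27.1 ± 11.0 CPM on the high side and 44.1 ± 27.1 CPM on the low side, 0.614 times as high. The other 12 mRNA rows were 1.09 times (ND5) to 1.54 times (MT-ND3) as high on the high side as on the low side. Within the low side, MT-ND6 was 30.3 ± 11.4 CPM in 8 cases and 52.6 ± 30.7 CPM in 13 controls, a log2 fold change of -0.79 (SE 0.27, adjusted p = 0.323). Within the high side it was 22.5 ± 6.4 CPM in 5 cases and 31.6 ± 13.5 CPM in 5 controls, a log2 fold change of -0.50 (SE 0.30, adjusted p = 1.00). The sign was the same on both sides. The platelet sum was higher on the high side as well, at 3193 ± 924 CPM against 2204 ± 790 CPM, and its part in the MT-ND6 values on each side was not tested.

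**Figure D3:**
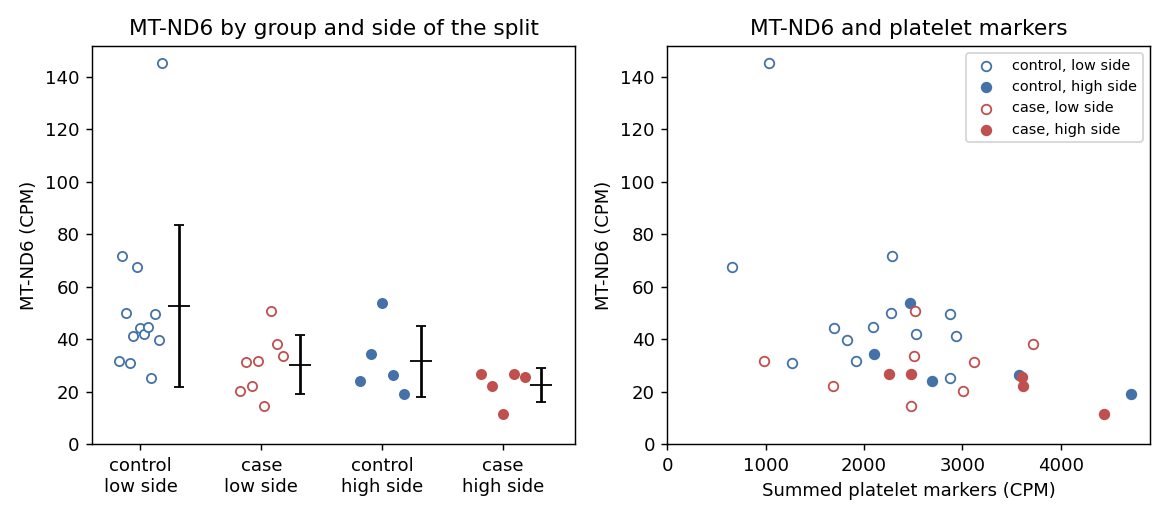
Left, MT-ND6 in CPM for each dog by group and by side of the small RNA gap, with means and SD in black. Right, the same values against the summed CPM of 9 platelet markers, filled points marking the high side. Control 9, at 145 CPM, is the highest dog for MT-ND6, and case 6, at 11.7 CPM, is the lowest.

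The 13 mRNA rows varied to different degrees from dog to dog in their balance, MT-ND6 the most. Each row was expressed as its share of the summed counts of the 13. Such shares grow with the length of a gene, which was not available here, so they are compared between dogs and not between genes. MT-CO2, a subunit of cytochrome c oxidase (complex IV), varied least, with 13.4% ± 1.0 over 31 dogs and a coefficient of variation of 7.44%. MT-ATP6, a subunit of ATP synthase, had 12.4% ± 1.0. MT-ND6 varied most, with a coefficient of variation of 50.4%, and 45.2% without control 9. That of ND4L, another complex I subunit, was 22.6% with control 9 and 12.9% without it. Without control 9, MT-ND2 came next after MT-ND6, at 19.0%. The share of MT-ND6 ran from 0.331% in control 3 to 2.94% in control 9, and was 0.879% ± 0.387 in the cases and 1.40% ± 0.63 in the controls.

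Control 9 and control 3 were the highest and the lowest dog for the MT-ND6 share, and each stood at an end for other rows as well. Control 9 had the highest MT-ND6, ND4L (2.75%), MT-ATP8 (2.78%) and MT-CO2 (16.7%) shares of all dogs and the lowest MT-CO1 (28.1%) and COX3 (8.98%) shares. Its neutrophil marker sum of 16265 CPM was the highest in the series and its rRNA share was the lowest. Control 3 had the lowest shares of MT-ND6, ND5 (2.59%), MT-ND1 (1.89%) and MT-CYB (4.15%), and a MT-CO1 share of 41.2%. Case 8 had the highest MT-CO1 share, 42.0%, and the lowest MT-ND4 (5.37%), MT-ND3 (0.604%) and ND4L (0.856%) shares. The erythroid sums were 38068 CPM in control 3, 12192 CPM in case 8 and 1696 CPM in control 9, and their part in the balance was not tested.

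The other complex I subunits did not pass for HTG. MT-ND1 was 97.7 ± 25.6 CPM in the cases and 116 ± 33 CPM in the controls, a log2 fold change of -0.25 (unadjusted p = 0.0656, adjusted p = 0.551), and 10 of 13 cases lay below the control median. ND4L had a log2 fold change of -0.31 (SE 0.17, adjusted p = 0.586), and its controls included control 9 at 135 CPM, with all other dogs at 84.2 CPM or less. Without control 9, ND4L was at -0.15 (adjusted p = 0.713). MT-ND2 was at -0.25, MT-ND3 at -0.16, MT-ND4 at -0.15 and ND5 at -0.14. MT-ND3 was at -0.25 without case 13 and -0.094 without control 14, and ND5 was at -0.082 without control 9. All 7 complex I subunits encoded in the mitochondrion thus had values below 0.

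MT-CYB, the cytochrome b of complex III, was 199 ± 49 CPM in the cases and 231 ± 53 CPM in the controls. Its log2 fold change was -0.22 (SE 0.12, unadjusted p = 0.0716, adjusted p = 0.560), and 9 of 13 cases lay below the control median while 4 lay below the lowest control.

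Of the mRNA rows, MT-CO1 and COX3 of complex IV had log2 fold changes nearest to 0. MT-CO1, which holds the catalytic heme and copper centre, was 1083 ± 242 CPM in the cases and 1080 ± 375 CPM in the controls, a log2 fold change of 0.00 (SE 0.14, 95% interval -0.26 to 0.27). COX3 was 405 ± 99 CPM and 399 ± 122 CPM, a log2 fold change of 0.02 (SE 0.13, 95% interval -0.23 to 0.28). MT-CO2, which receives electrons from cytochrome c, was at -0.18 (SE 0.12, adjusted p = 0.640), and at -0.11 without control 9. The signs of MT-CO1 and COX3 changed with the processing. Of the ATP synthase subunits, MT-ATP8 had a log2 fold change of -0.26 (SE 0.15, adjusted p = 0.605) and MT-ATP6 of -0.10 (SE 0.14, adjusted p = 0.869). Without control 9, MT-ATP8 was at -0.14, and MT-ATP6 was at -0.023 without control 3, -0.035 without control 14 and -0.17 without case 9.

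Sex was compared next, with group in the model. No mitochondrial row passed between females and males, where 0.122% of all genes did (17 genes), and at an unadjusted p under 0.05 edgeR counted 0 of 20 rows, where it counted 4.89% of all genes, and DESeq2 1 of 37 rows, where it counted 3.66%. All 13 mRNA rows had lower values in females, with log2 fold changes from -0.28 (ND4L) to -0.04 (MT-CO1) and a median of -0.18, and 56.5% of all genes lay below 0. This did not hold within both groups. The mean CPM was higher in females for 13 of the 13 rows among the cases and for 0 of the 13 among the controls.

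The HTG difference was then compared between the sexes, as the female difference minus the male difference. No mitochondrial row and no other gene passed after adjustment (a background of 0%). At an unadjusted p under 0.05, 7 of the 20 rows were counted, all of them mRNA rows with a value above 0. DESeq2 counted 7 of 37 rows, where it counted 3.30% of all genes. The edgeR background at that level was 3.93% of all genes, or 3.02% for values above 0. All 13 mRNA rows lay above 0, with a median of 0.51, where the median of all genes was 0.013 and 47% of genes lay below 0. Leaving out each dog in turn, which was added after the data were seen, the count ran from 5 rows (without case 7 or case 13, where 4.61% and 4.43% of all genes were counted) to 11 (without case 1 or case 8, with 2.80% and 4.09%). It was 12 with the erythroid score in the model, with 4.06% of all genes. Without case 1 and control 3 together it was 11, with 3.10% of all genes. With the side of the small RNA gap in the model it was 6, with 3.92% of all genes. With library sizes taken without the 37 mitochondrial rows it was also 6 (3.89%), and with the platelet score it was 8 (5.27%).

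**Figure D4:**
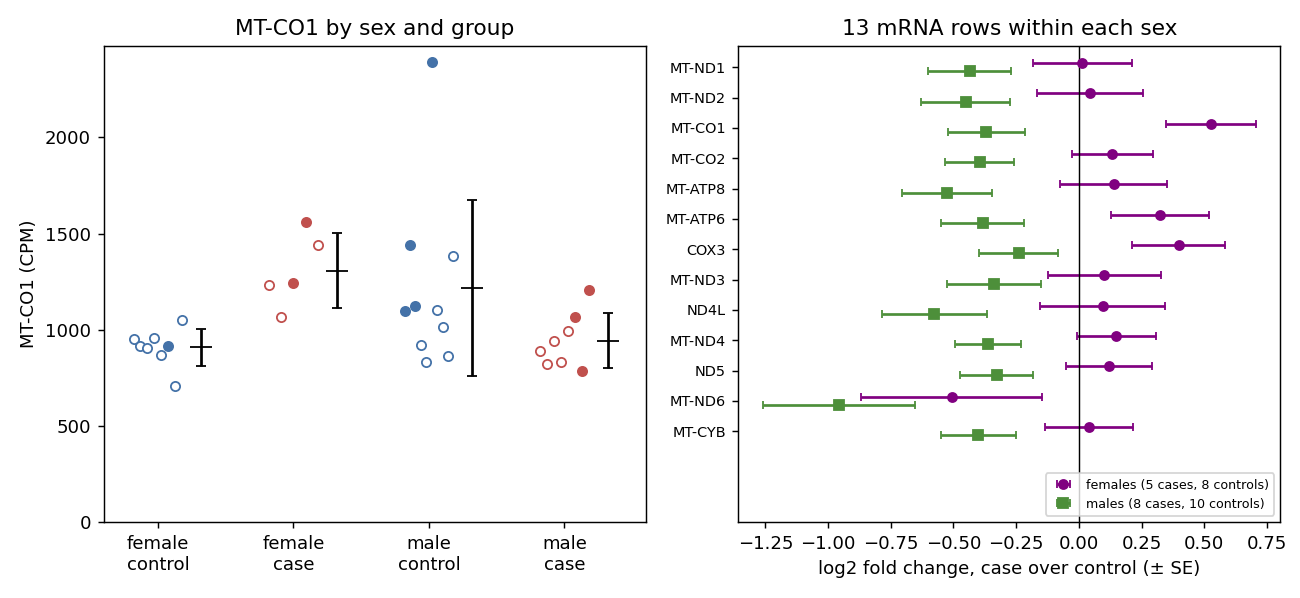
Left, MT-CO1 in CPM for each dog by sex and group, with means and SD in black and filled points for the high side of the small RNA gap. Right, log2 fold change of cases over controls with its standard error within females (circles) and within males (squares) for the 13 mRNA rows. MT-CO1 is at 0.53 in females and -0.37 in males, and every male value lies below 0.

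MT-CO1 had the smallest p of the 20 rows for this difference. The 5 female cases ran from 1068 to 1561 CPM with a median of 1241 CPM, and the 8 female controls from 706 to 1051 CPM with a median of 915 CPM, so the female groups did not overlap. Among the 20 rows this held for MT-CO1 alone, and it held for 0.208% of all genes tested. The 8 male cases ran from 783 to 1209 CPM with a median of 917 CPM, and the 10 male controls from 831 to 2391 CPM with a median of 1102 CPM, and they overlapped, as in all of the 20 rows (0.00718% of all genes did not overlap in males). The log2 fold change was 0.53 (SE 0.18, unadjusted p = 0.00646, adjusted p = 0.731) in females and -0.37 (SE 0.15, unadjusted p = 0.0217, adjusted p = 0.644) in males. The difference between them was 0.89 (SE 0.24), with an unadjusted p of 0.000656 and an adjusted p of 1.00.

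That difference was 0.75 (SE 0.19) without case 1 and control 3, the latter being the male control at 2391 CPM. The summed erythroid markers were 10839 ± 7091 CPM in female cases, 3922 ± 2193 CPM in female controls, 5058 ± 3899 CPM in male cases and 5826 ± 11410 CPM in male controls, of which control 3 alone had 38068 CPM. The medians were 12134, 3633, 4016 and 1930 CPM in the same order, and the mean of the male controls without control 3 was 2243 ± 1457 CPM. With the erythroid score in the model the MT-CO1 difference was 0.71 (SE 0.21, adjusted p = 0.766), and with the platelet score 0.92 (SE 0.22, adjusted p = 0.918). For the same difference, all 11 erythroid markers found lay above 0, with a median of 1.48, larger than the 0.51 of the mRNA rows. At an unadjusted p under 0.05, 2 of the 11 were counted (18.2%, with the background of 3.93%), SLC4A1 at 1.91 and TRIM58 at 1.54, both named after their values were seen, and none passed. The part of these cells in the mRNA values was not tested beyond the fit with the erythroid score.

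For the HTG difference in females minus males, edgeR counted 6 other rows. These were MT-ATP6 at 0.71 (unadjusted p = 0.00974), COX3 at 0.64 (0.0137), MT-ND4 at 0.51 (0.0182), MT-CO2 at 0.53 (0.0184), MT-ATP8 at 0.66 (0.0222) and ND4L at 0.67 (0.0472). With MT-CO1, the rows counted include all 3 complex IV subunits and both ATP synthase subunits. MT-ND6 was not among them. Its log2 fold change was -0.51 in females and -0.96 in males, a difference of 0.45 (SE 0.46, unadjusted p = 0.339), so it was below 0 in both sexes.

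The 22 rows without a symbol held few counts, 3.59 to 52.5 of each 1000000 counts in a library. Of these, 9 had under 100 counts over all dogs, and none was at 0 in every dog. The rows ENSCAFG00000022733 and ENSCAFG00000022738 had 1 and 2 counts in all, each in 1 dog, and ENSCAFG00000022708 had 7 counts in 6 dogs. In a library, a count of 0 allows up to 0.0692 to 0.392 CPM (3 counts, on the scale of the CPM values given here). The 3 highest rows by mean CPM were ENSCAFG00000022718 at 3.79, ENSCAFG00000022744 at 2.82 and ENSCAFG00000022716 at 1.69 CPM.

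These rows were next described by the side of the small RNA gap. Of the 22, 15 had a higher mean on the high side, where 43.6% of all rows with at least 1 count did. Among the 13 with at least 100 counts it was 11, where 47.1% of all rows with that many counts did, and 5 had every high side dog above every low side dog, where 0.982% of all rows with that many counts did. ENSCAFG00000022718 ran from 2.38 to 19.4 CPM in the 10 dogs of the high side and from 0.0617 to 1.43 CPM in the 21 dogs of the low side, a ratio of means of 16.1. ENSCAFG00000022737 ran from 0.688 to 5.61 CPM and from 0 to 0.321 CPM, a ratio of 30.9. The small RNA rows that define the gap and these rows were read in the same libraries, so no test was made.

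**Figure D5:**
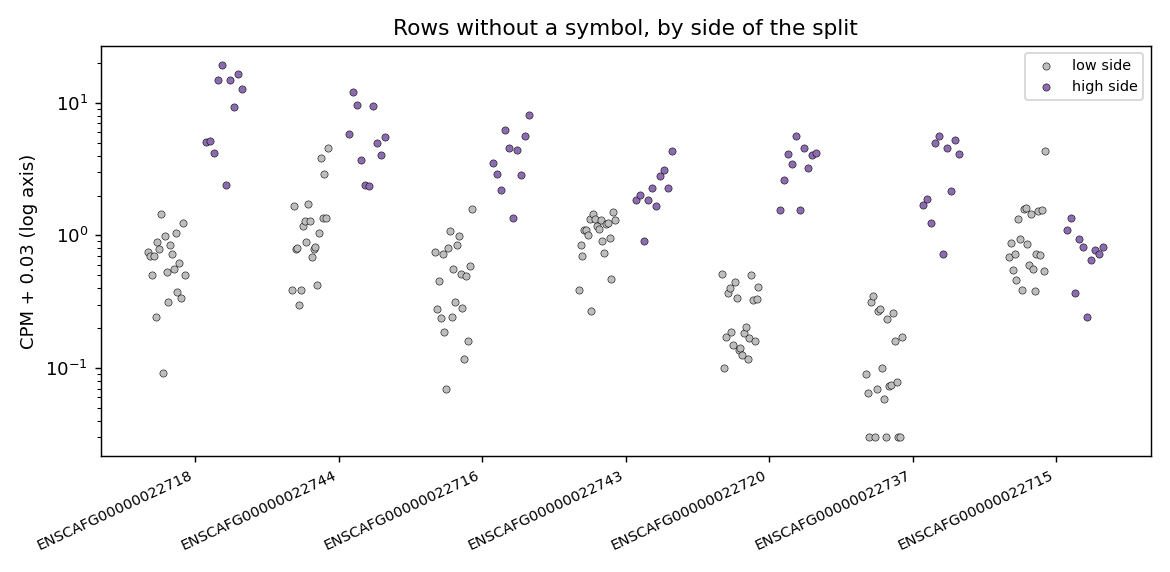
CPM plus 0.03 (log axis) of the 7 rows without a symbol that had the highest mean, 1 point per dog, by side of the small RNA gap (grey low, purple high). In 3 of the 7 rows no low side dog reaches the lowest high side dog, and the medians of ENSCAFG00000022715 are 0.767 CPM on the high side and 0.698 CPM on the low side.

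ENSCAFG00000022715 was at 0.748 ± 0.320 CPM on the high side and 1.04 ± 0.86 CPM on the low side, where control 9 was the highest dog at 4.30 CPM. Its medians were 0.767 CPM and 0.698 CPM, and the low side mean without control 9 was 0.874 ± 0.438 CPM. For HTG, the 5 rows that could be tested had log2 fold changes from -0.43 (ENSCAFG00000022715) to 0.27 (ENSCAFG00000022718, SE 0.72), and none was at an unadjusted p under 0.05. Without control 9, ENSCAFG00000022715 was at -0.15. Within the high side alone, ENSCAFG00000022715 turned to 0.56 (SE 0.45) and ENSCAFG00000022718 to -0.21 (SE 0.54). With the platelet score in the model, ENSCAFG00000022715 was at -0.014 and ENSCAFG00000022718 at -0.82 (SE 0.71).

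Nuclear genes that keep and read the mitochondrial genome, or build what its products join, were taken in 8 lists with 215 distinct genes tested. None passed for HTG. At an unadjusted p under 0.05, edgeR counted 19 (8.84%), 6 higher and 13 lower in the cases, with a background of 9.81%. DESeq2 called 3 after adjustment (TRNT1, MRPL35 and PINK1), among 89 genes that it called in all (0.563% of those with an adjusted p), and limma-voom called none. Without control 3, edgeR called the same 3 nuclear genes, where it called 1.11% of all genes.

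TRNT1, which adds the terminal CCA to tRNAs, had the smallest adjusted p of the 215. It was 33.6 ± 5.0 CPM in the cases and 45.1 ± 10.4 CPM in the controls, a log2 fold change of -0.42 (SE 0.10, adjusted p = 0.0752). MRPL35, a protein of the large mitochondrial ribosomal subunit, was at -0.55 (SE 0.13, adjusted p = 0.0795). PINK1, the kinase that marks damaged mitochondria for removal, was 27.9 ± 5.4 CPM and 20.6 ± 4.6 CPM, a log2 fold change of 0.44 (SE 0.11, adjusted p = 0.110). SQSTM1, an adaptor of selective autophagy, was at 0.34 (adjusted p = 0.232).

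TFAM, which packages mitochondrial DNA and starts its transcription, was at -0.06 (SE 0.10, adjusted p = 0.881), and POLRMT, the mitochondrial RNA polymerase, at -0.02 (SE 0.10, adjusted p = 0.962). LRPPRC and SLIRP, which together stabilise mitochondrial mRNAs, were at -0.05 (adjusted p = 0.927) and -0.15 (adjusted p = 0.774). PPARGC1A, a coactivator of mitochondrial biogenesis, was 1.76 ± 0.97 CPM in the cases and 1.11 ± 0.52 CPM in the controls, a log2 fold change of 0.65 (SE 0.26, adjusted p = 0.371).

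By list, 6 of 30 genes of mitochondrial RNA processing and decay were lower at an unadjusted p under 0.05 and none higher, among them TRMU (-0.24) and TRIT1 (-0.25), both tRNA-modifying enzymes. The background for lower genes was 4.76%. Of the 30, 23 lay below 0 with a median of -0.065, where 54.5% of all genes tested lay below 0. Of 17 mitochondrial tRNA synthetases, 2 were lower at that level, EARS2 (-0.38) and FARS2 (-0.25), and 16 lay below 0. Of 14 genes of mitochondrial transcription and DNA maintenance, 1 was lower at that level, RNASEH1 (-0.22), which removes RNA paired with DNA, and 11 lay below 0. Of 10 translation factors none was counted, and TACO1, a translational activator of MT-CO1, had the smallest p (-0.19, adjusted p = 0.538). Of the 9 T cell markers, 8 also lay below 0 (median -0.17), and their part in these lists was not tested.

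Of the 59 mitochondrial ribosomal proteins tested, 1 was higher (MRPL41, 0.30) and 1 lower (MRPL35) at an unadjusted p under 0.05, together 3.39% of the list. The background was 9.81% in both directions, 5.04% for higher and 4.76% for lower genes. Of the 58 nuclear genes of the respiratory chain, 2 were higher, among them COX7A2L (0.27), and 1 lower, NDUFAF7 (-0.18), together 5.17%, with 34 above and 24 below 0. Of 13 genes of mitochondrial turnover, PINK1 and SQSTM1 were higher and MFN1, an outer membrane fusion protein, lower (-0.13), together 23.1%. Of 15 regulators of biogenesis, PPARGC1A was higher and SIRT3, a mitochondrial deacetylase, lower (-0.24), together 13.3%. None of these passed after adjustment over all genes. For the HTG difference in females minus males, 8 of the 58 nuclear genes of the respiratory chain were counted at an unadjusted p under 0.05 (13.8%, with the background of 3.93%), 7 of them above 0, and none passed. All 11 erythroid markers lay above 0 for that difference (median 1.48), and their part in this list was not tested.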

How the data were processed

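Whole blood RNA was made into stranded total RNA libraries with a kit that removes rRNA. The labels and the study's methods name different extraction kits, and the labels call the molecule polyA RNA. Per the methods, the authors trimmed reads with Trimmomatic, aligned them with HISAT2 to Dog10K_Boxer_Tasha (canFam6) and counted features when both mates mapped. The values the authors deposited are raw counts per gene. The counting program, annotation and treatment of nuclear copies of mitochondrial DNA are not given in the sources used here.

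Counts were tested with edgeR 4.0.16 (quasi-likelihood, TMM, its filter on low counts by group; R 4.3.3), with Benjamini-Hochberg adjustment over all 13918 genes. The designs were group, group plus sex, and group by sex. CPM uses the same factors, a standard error is the log2 fold change over the root of its F, and 95% intervals use 1.96 standard errors. Marker scores are means of centred log2 CPM (prior count 2). DESeq2 1.42.0 and limma-voom (limma 3.58.1) were alternatives. Each library is 1 dog, and no 2 columns were identical. The authors' model held a batch term for pilot libraries, which no fit here has, as the pilot dogs are not known here. The steps were tested on simulated data.

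Named were the rRNA and mRNA rows, the 3 highest and 3 lowest other rows by mean CPM, and from the nuclear lists TFAM, POLRMT, LRPPRC, SLIRP, PPARGC1A and up to 3 genes a list with the smallest p. ENSCAFG00000022715 and ENSCAFG00000022737 were named after their values were seen. Members and lists were chosen with earlier results of these data known. Markers not found by symbol (HBB and PF4 among them) were left out. Of the nuclear genes with the smallest p, 1 is not reported here.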

Additional observations from a re-analysis of the deposited data

Results flagged for a closer look

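Dixon's gap test was run on 19 quantities (the CPM of the 15 rRNA and mRNA rows, the 3 shares and the ratio of the rRNA rows) in each subset of 5 to 10 dogs of 1 sex and group, 76 subsets in all. In 8 subsets 1 dog lay far from the others, where chance flags about 1 in 20 subsets, and the quantities share libraries.

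Among the 10 male controls, control 3 was the highest dog for ENSCAFG00000022709 (155650 CPM, next 102620), ENSCAFG00000022711 (304360 CPM, next 140350), MT-CO1 (2391 CPM, next 1438) and the ratio of the 2 rRNA rows (1.96, next 1.37). This is the dog with the lowest TMM factor and the highest erythroid sum, which the CPM values carry. Control 9 was the highest male control for MT-ND6 (145 CPM, next 67.6) and ND4L (135 CPM, next 84.2). Among the 8 male cases, case 9 was the highest for MT-ATP8 (78.7 CPM, next 51.8). Among the 8 female controls, control 2, the only one of them on the high side of the small RNA gap, was the highest for the rows without a symbol (46.4 of each 1000000 counts, next 10.9).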

How the results depend on the processing

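The count of mitochondrial rows called stayed at 0 for HTG, for sex and for the HTG difference in females minus males under each alternative run. This includes leaving out each dog in turn, which was run for HTG and for the HTG difference in females minus males. The count of nuclear genes called rose from 0 to 3 with DESeq2, and ran from 0 to 3 when each dog was left out, 3 without control 3. The mRNA share difference stayed below 0 in each setting (-0.0518 to -0.0350 percentage points), while the rRNA share difference ran from -0.0856 to 0.793. Over 20 rows, 15 other settings, 1 covariate added after the data were seen and 31 single dogs left out, 884 of 935 fold changes kept their sign and their side of the threshold and 51 changed sign, none of them past the threshold. The cause was not tested.

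Log2 fold changes that changed sign were, for MT-CO1, -0.00116 with upper quartile factors, -0.017 with the side of the small RNA gap as a covariate, -0.25 on the high side alone, -0.095 with the platelet score and -0.11 with the erythroid score. For COX3 they were -0.026 with the side, -0.087 on the high side alone, -0.12 with the platelet score and -0.048 with the erythroid score. ENSCAFG00000022711 was -0.20 with the platelet score. ENSCAFG00000022715 was 0.56 and ENSCAFG00000022718 -0.21 on the high side alone, and the latter was -0.82 with the platelet score. ENSCAFG00000022716 was -0.011 with limma-voom, -0.38 with the side, -0.18 and -0.51 on the high and low side alone, -0.58 with the platelet score and -0.29 with the erythroid score. ENSCAFG00000022744 was -0.23 with limma-voom, -0.48 with the side, -0.98 on the low side alone, -0.58 with the platelet score and -0.16 with the replicate block. With single dogs left out, MT-CO1 ran from -0.051 to 0.11, COX3 from -0.040 to 0.11, ENSCAFG00000022716 from -0.22 to 0.45, ENSCAFG00000022718 from -0.27 to 0.64 and ENSCAFG00000022744 from -0.19 to 0.47.

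The labels number cases and controls alike, but the numbers do not pair dogs. In the study's list of dogs they run from the highest to the lowest triglycerides within each group. Deviations of same-numbered dogs had correlations of -0.437 to 0.263 over 13 pairs, 3 of them over 0.1, and 1 dog correlated best with its own number. The replicate block thus joins dogs of the same rank, and controls without a same-numbered case add nothing to its group difference. With the replicate block 0 mitochondrial rows and 0 nuclear genes were called, and MT-ND6 was at -0.64 (edgeR adjusted p = 0.732).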
